A study of Mus musculus with 6 samples.

Results

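Paired immune receptors are cell surface proteins of myeloid cells that come as inhibitory and activating relatives encoded side by side, and Siglecs are lectins that read sialic acid on glycoproteins and glycolipids. Here 10 genes of this kind (Sirpa, Pirb, Lilrb4a, Lilr4b, Siglec1, Siglece, Cd300a, Cd300lf, Cd200r1 and Pilra), picked by gene symbol from the 55453 rows of the count table, were compared between macrophages with and without the catalytic subunit PP2Ac of protein phosphatase 2A. The data were 6 poly(A) RNA-Seq libraries of bone marrow-derived macrophages (BMDM) from C57BL/6 mice, 3 labelled PP2A KO and 3 labelled WT. The study describes the PP2Ac KO cells as LysMcre PP2Ac fl/fl, in which floxed exon 1 of Ppp2ca is removed by cre under the Lysozyme 2 promoter. It describes the WT mice as C57BL/6 from a commercial breeder, so cre, the floxed alleles and the breeding colony cannot be told apart from the loss of PP2Ac. According to its methods, mice of both sexes aged 6 to 10 weeks were used. The study describes its RNA-Seq BMDM of both genotypes as treated with the STING agonist cGAMP (10 µg/mL for 4 hours). This was taken to hold for all 6 libraries, although the labels name no treatment. No library described as untreated was analysed here. The labels do not say whether the replicates came from separate animals or cultures, so p-values measure only the spread between these libraries, which may be technical.

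Inhibitory receptors of this kind carry a tyrosine motif in the cytoplasmic tail, the ITIM, which after phosphorylation by Src family kinases recruits the phosphatases SHP-1, SHP-2 or SHIP-1 and dampens signals from activating receptors. A related motif, the ITSM, can bind both phosphatases and adaptors. The activating relatives have short tails and signal through the adaptors DAP12 (Tyrobp) or FcRγ (Fcer1g). In macrophages these receptors set thresholds for phagocytosis, cytokine release and responses to self ligands such as CD47, CD200, MHC class I and sialic acid.

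The deletion was seen in every KO library. The KO counts of Ppp2ca were 47, 33 and 38 against 10654, 8913 and 8279 in WT, a log2 fold change of -7.67 (SE 0.0967), while Ppp2cb, which encodes the β isoform, had a log2 fold change of 0.03 (SE 0.0544, FDR 0.731). Library totals ran from 35257156 to 47390899 counts. The summed level of 6 macrophage markers was 7286 to 7474 CPM (counts scaled to library size with TMM factors) in KO and 6162 to 6794 in WT, and 2 of the 6 (Fcgr1 and Mertk) were higher in KO, or 3 with the replicate number as a block, which added Csf1r (log2 fold change 0.18, FDR 0.00280). The 4 fibroblast markers summed to 22.7 to 33.4 CPM in KO and 74.9 to 118 in WT and were all lower in KO. The 6 neutrophil markers summed to at most 0.939 CPM, with Ly6g and Retnlg at 0 in every library, the 7 lymphocyte markers to at most 1.46 CPM, with Cd8a at 0, and the 6 eosinophil and mast cell markers to at most 4.94 CPM, with Mcpt4 at 0. The 6 dendritic cell markers summed to 2.25 to 3.44 CPM in KO and 1.34 to 2.13 in WT, and 2 of the 4 that passed the filter were higher in KO, Siglech and Clec9a (log2 fold change 1.25, SE 0.380, FDR 0.0284, at most 54 counts). Lyz2, whose promoter drives cre and which macrophages are known to express highly, had 260 to 421 counts per library. The reason for these low counts was not tested. Its log2 fold change was 0.28 (SE 0.125, FDR 0.104), which passed the test with the replicate block (FDR 0.0118). In bulk libraries fewer cells of a type and less RNA per cell cannot be told apart, and the part of these marker differences in the receptor results was not tested.

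The tails of the 10 receptors differ in the tyrosine motifs that the coding sequences of the GENCODE M21 transcripts (GRCm38) spell. Binding was not measured. A stretch was counted as an ITIM where the codons after the most hydrophobic segment spelled isoleucine, valine, leucine or serine, then any residue, tyrosine, any pair of residues, and isoleucine, valine or leucine; for an ITSM the first residue was threonine and the last isoleucine or valine. Sirpa held 3 ITIM and 1 ITSM stretches, Pirb 3 and 0, Cd300lf 2 and 1, Lilrb4a 2 and 0, Cd300a 2 and 0, Siglece 1 and 1, and Pilra 1 and 1. Lilr4b and Siglec1 had neither, with 43 and 36 residues after the segment. Cd200r1 had neither but held 1 stretch of asparagine, proline, any residue and tyrosine, the kind of site through which CD200R recruits the adaptors DOK1 and DOK2. The coding stretches below are from inhibitory receptors that were raised in KO, with capitals marking the tyrosine codon. Sirpa, Lilrb4a and Cd300a, which were not called, hold ITIM stretches too, so the motif does not separate raised from other receptors.
Siglece ITIM, chr7:43651585-43651602, minus strand: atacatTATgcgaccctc
Siglece ITSM, chr7:43651516-43651533, minus strand: acggagTACtcagagata
Pilra ITIM, chr5:137823571-137823588, minus strand: atcgtgTATgcttccatc
Pilra ITSM, chr5:137823484-137823501, minus strand: actgtgTACtccatcgta
Cd300lf first ITIM, chr11:115117648-115117665, minus strand: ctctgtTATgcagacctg
Pirb second ITIM, chr7:3712786-3712803, minus strand: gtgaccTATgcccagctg

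Of the 10 receptor genes, 6 were higher in PP2Ac KO than in WT BMDM (Siglece, Pilra, Siglec1, Cd300lf, Pirb and Lilr4b), 0 were lower and 4 (Lilrb4a, Cd300a, Cd200r1 and Sirpa) did not pass the test at FDR 0.05. The test was edgeR's quasi-likelihood test on the deposited counts with the Benjamini-Hochberg correction across all 13680 genes that passed the filter. All 10 passed the filter on low counts. Among all genes tested, 37.1% were called, 18.1% higher and 19.0% lower in KO. The difference between the receptors and all genes was not tested. The median log2 fold change was 0.35 over the receptors and -0.02 over all genes. Beside the count of 0 lower receptors, none was lower at an unadjusted p under 0.05 in this fit, and DESeq2 and limma-voom also called 0. At the thresholds the study used for upregulated genes, a log2 fold change over 1 with FDR under 0.01, Siglece and Pilra were 2 of 10, against 3.36% of all genes, and 0 lay past the mirrored thresholds in the other direction, against 2.99%. When the replicate number was added to the model as a block, 7 receptors were higher, against 24.4% of all genes, and 0 lower, against 26.4%. The members that rose include receptors with ITIM stretches (Siglece, Pilra, Cd300lf, Pirb) and receptors without (Siglec1, Lilr4b). Cd200r1, also without ITIM stretches, was not called.

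**Figure D1:**
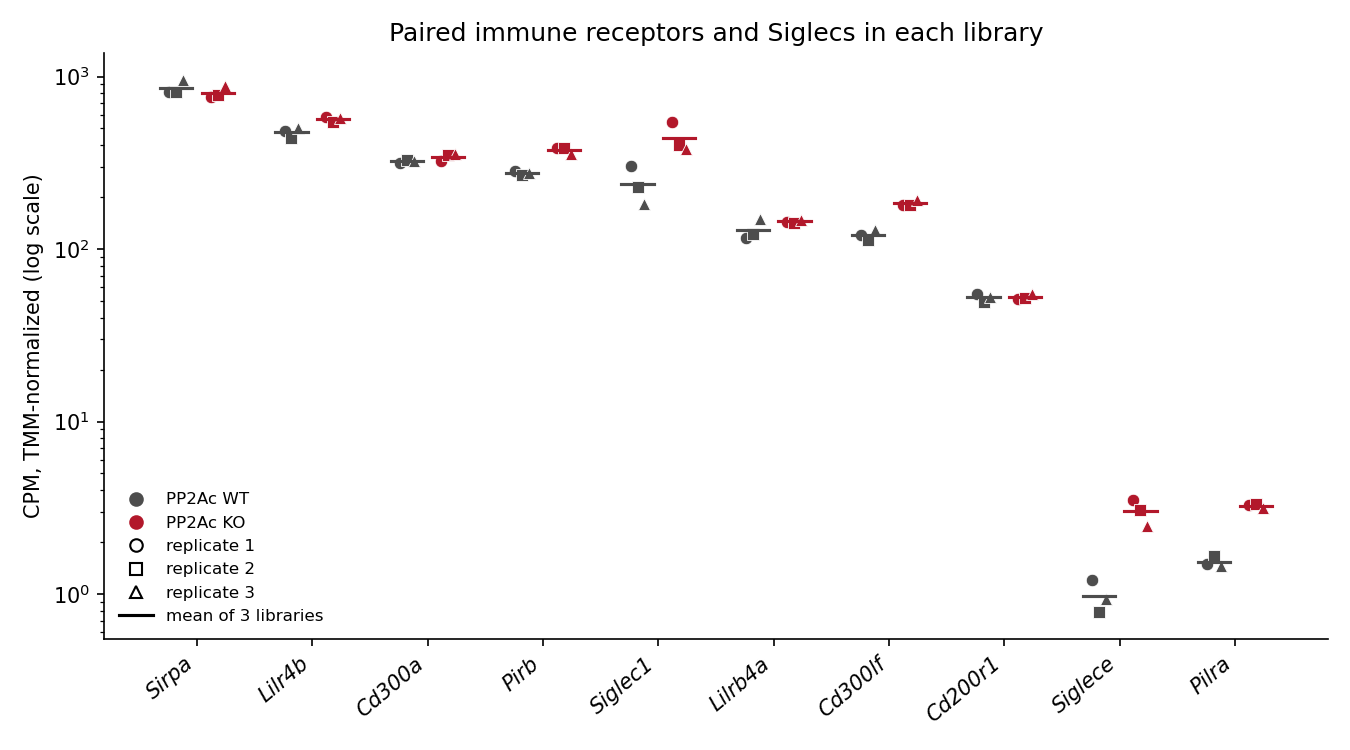
Level of each receptor gene in each library, in TMM-scaled CPM on a log axis (y), for WT (grey) and PP2Ac KO (red) libraries; the symbol gives the replicate and the bar the mean of 3 libraries. Genes are ordered along x by their WT level per length. Red and grey symbols are separate for Lilr4b, Pirb, Siglec1, Cd300lf, Siglece and Pilra and overlap for Sirpa, Cd300a, Lilrb4a and Cd200r1. Of all genes tested, 50.9% had groups that do not overlap. Siglece and Pilra lie below 4 CPM while the other 8 lie above 49 CPM.

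Per length the receptors spanned a wide range. RPKM is the CPM divided by the merged length of a gene's annotated exons in kilobases. Pirb, Lilrb4a and Lilr4b share sequence with other genes, and reads dropped there could lower their places. In WT the order in RPKM was Sirpa (176 ± 17.0, SD, n = 3), Lilr4b (87.7 ± 5.90), Cd300a (68.4 ± 1.32), Pirb (61.7 ± 1.40), Siglec1 (33.4 ± 8.52), Lilrb4a (24.7 ± 3.31), Cd300lf (23.4 ± 1.53), Cd200r1 (15.6 ± 0.888), Siglece (0.526 ± 0.117) and Pilra (0.496 ± 0.0347). Siglec1 and Lilrb4a, Lilrb4a and Cd300lf, and Siglece and Pilra overlapped between libraries as neighbors in this order, and the other neighbors were apart. In KO the order changed at 2 places: Pirb (84.1 ± 4.12) lay above Cd300a (72.5 ± 3.62), and Cd300lf (35.8 ± 1.17) above Lilrb4a (27.6 ± 0.497). Among the 13582 tested genes with a length, 98.6% had a WT RPKM below that of Sirpa and 18.3% one below that of Pilra.

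The Siglecs and Pilra recognize sialylated ligands and showed the largest changes. Siglece, a CD33-related inhibitory Siglec of mouse myeloid cells, lies at chr7:43651070-43660161 (minus strand, ENSMUSG00000030474). Its level was 3.51, 3.06 and 2.49 CPM in the KO libraries and 1.21, 0.782 and 0.930 in the WT libraries. Every KO library was above every WT library, and the log2 fold change was 1.62 (SE 0.208, 95% interval 1.15 to 2.09, FDR 0.000432), 3.08-fold. The gene was read at a low depth, 101 to 149 counts in KO and 34 to 60 in WT. Groups that do not overlap in this way were seen for 50.9% of all genes tested.

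Siglec1 (CD169, sialoadhesin) is a long adhesion receptor that binds and takes up sialylated particles and is known in macrophages as an interferon-inducible gene. It lies at chr2:131069220-131086765 (minus strand, ENSMUSG00000027322). The KO libraries gave 543, 402 and 381 CPM and the WT libraries 304, 230 and 183 CPM. The KO libraries were all above the WT libraries, but the gap between the genotypes was smaller than the range within either of them. The log2 fold change was 0.89 (SE 0.186, 95% interval 0.47 to 1.31, FDR 0.00514), and with any 1 library left out it ran from 0.71 to 1.10 and stayed called. Replicate 1 was the highest of its genotype for both Siglec1 and Siglece, in KO and in WT.

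Pilra, the inhibitory receptor for sialylated O-glycoproteins such as PIANP and CD99, lies at chr5:137821952-137836281 (minus strand, ENSMUSG00000046245). It was present at 3.30, 3.33 and 3.14 CPM in KO and 1.49, 1.66 and 1.46 CPM in WT, from 110 to 140 and 61 to 74 counts. The libraries of each genotype lay close together and the genotypes did not overlap. The log2 fold change was 1.08 (SE 0.134, 95% interval 0.78 to 1.39, FDR 0.000360). Pilra overlaps Zcwpw1 on the opposite strand by 670 bases, and the strand setting of the counting is not given in the sources used here. Zcwpw1 had 52 to 116 counts and a log2 fold change of the other sign, -0.52 (SE 0.183, FDR 0.0510), which passed the test with the replicate block (-0.53, FDR 0.0256).

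Cd300lf and Cd300a are the inhibitory receptors of the CD300 family, which bind phosphatidylserine and other phospholipids on dying cells. Cd300lf (chr11:115116214-115133992, minus strand, ENSMUSG00000047798) was at 181, 181 and 191 CPM in KO and 121, 112 and 128 CPM in WT. The genotypes were far apart relative to the spread within each, with a log2 fold change of 0.61 (SE 0.0689, 95% interval 0.46 to 0.77, FDR 0.000235). Cd300a, at the other end of the cluster (chr11:114890041-114904654, plus strand, ENSMUSG00000034652), gave 324, 353 and 354 CPM in KO and 317, 329 and 325 CPM in WT. Its groups overlapped, and the log2 fold change of 0.08 had a 95% interval from -0.06 to 0.23 (FDR 0.349), which does not reach the lower bound for Cd300lf. Cd300lf lies within Rab37 on the opposite strand, which had at most 91 counts.

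Pirb, an inhibitory receptor for MHC class I on macrophages and B cells, rose. It lies at chr7:3711409-3720391 (minus strand, ENSMUSG00000058818). Its level was 386, 387 and 355 CPM in KO and 282, 270 and 275 CPM in WT. The lowest KO library was well above the highest WT library, and the log2 fold change was 0.45 (SE 0.0658, 95% interval 0.30 to 0.60, FDR 0.000830). Of its transcript windows of 50 bases, 34% also occur in other genes, mostly Gm14548, Pira2 and Lilra6. The counts of these relatives were low: Gm14548 had at most 226, and Pira2 at most 1338, beside 11538 to 16381 for Pirb. Reads in shared sequence may have been split or dropped in counting, so these counts cannot show how many were affected.

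Lilr4b (gp49A) and Lilrb4a (gp49B) are neighbors on chromosome 10 with closely related extracellular parts, and only the latter has ITIMs. Lilr4b (chr10:51480632-51486703, plus strand, ENSMUSG00000112023) was at 580, 545 and 574 CPM in KO and 482, 443 and 506 CPM in WT. The groups did not overlap, and the log2 fold change was 0.25 (SE 0.0726, 95% interval 0.08 to 0.41, FDR 0.0243). This call was lost under upper-quartile scaling (0.18, FDR 0.0660) and without KO replicate 1 (FDR 0.0834), KO replicate 2 (FDR 0.0538), KO replicate 3 (FDR 0.0740) or WT replicate 2 (FDR 0.110).

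Lilrb4a (chr10:51490956-51496611, plus strand, ENSMUSG00000112148) was at 144, 142 and 147 CPM in KO and 116, 122 and 149 CPM in WT. The WT library of replicate 3 lay above every KO library, and the log2 fold change was 0.16 (95% interval -0.04 to 0.37, FDR 0.196). With the replicate number as a block it was 0.17 (SE 0.0576, FDR 0.0298), which passed the test, and without WT replicate 3 it was 0.28 (FDR 0.0148). Both genes share sequence with others: 46.7% of the Lilrb4a windows and 24.5% of the Lilr4b windows occur in another gene. For Lilrb4a the largest part is shared with Gm49339 (33.7% of its windows), and for Lilr4b with Lilrb4a (24.1%). Gm49339 overlaps both genes on the same strand and had at most 2 counts. Gm40645 overlaps Lilrb4a on the opposite strand and had at most 16 counts. Reads of either receptor may have been split or dropped in counting. Summing the counts of Lilr4b and Lilrb4a gave a log2 fold change of 0.23 (SE 0.0746, FDR 0.0370). The sum cannot recover reads dropped for matching Gm49339.

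The receptors for the "do not attack" ligands CD47 and CD200 gave no call. Sirpa, through which CD47 restrains phagocytosis (chr2:129592835-129632228, plus strand, ENSMUSG00000037902), was at 765, 777 and 881 CPM in KO and 812, 818 and 960 CPM in WT. The groups overlapped, with replicate 3 highest in both, and the log2 fold change was -0.10 (95% interval -0.30 to 0.11, FDR 0.443). Blocking on the replicate number narrowed the interval to -0.18 to -0.01, with FDR 0.0697. Cd200r1 (chr16:44765736-44794978, plus strand, ENSMUSG00000022667) was at 51.3, 52.1 and 54.9 CPM in KO and 55.1, 49.2 and 52.8 CPM in WT. These values were interleaved, the log2 fold change was 0.01 (95% interval -0.13 to 0.15, FDR 0.906), and its sign changed under upper-quartile scaling (-0.05) and without KO replicate 3 (-0.02) or WT replicate 2 (-0.03).

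**Figure D2:**
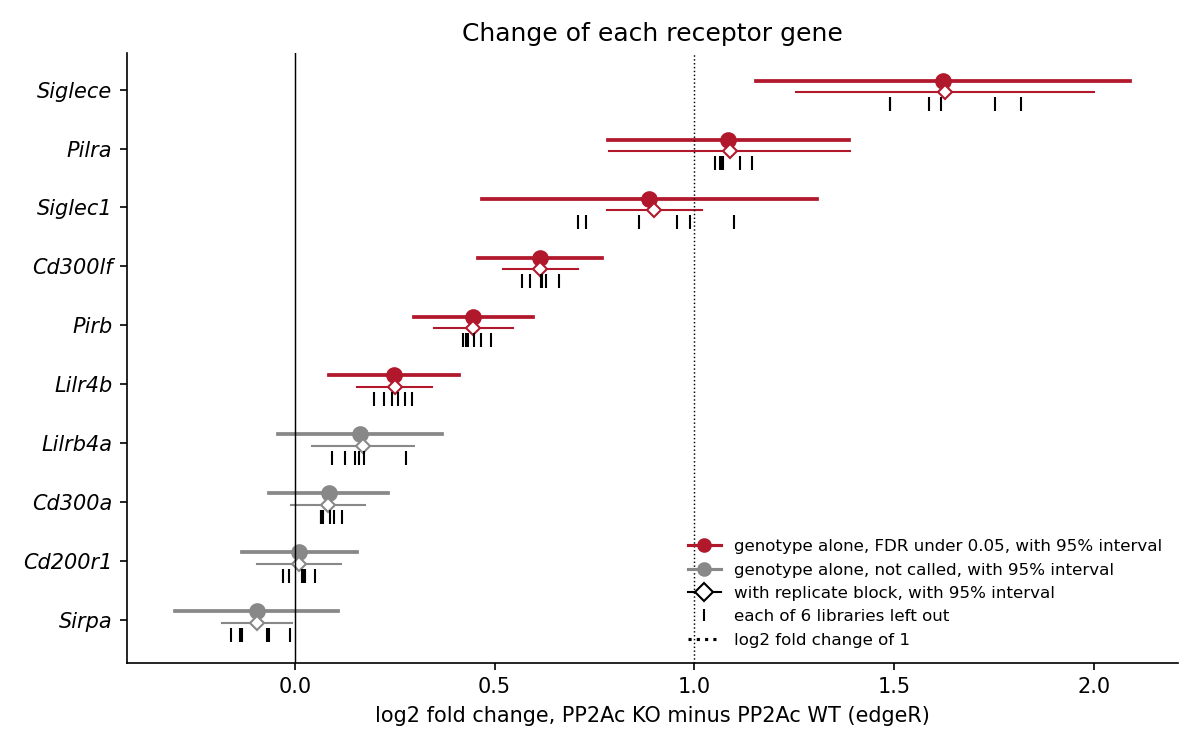
Log2 fold change of each receptor gene, PP2Ac KO minus WT (x), with its 95% interval; circles show the model of genotype alone (red, FDR under 0.05; grey, not called), diamonds the model that also holds a replicate block, in the color of the circle, and ticks the fits with each of the 6 libraries left out. Siglece (1.62) and Pilra (1.08) lie past the dotted line at 1, the intervals of Siglec1, Cd300lf, Pirb and Lilr4b exclude 0, and those of Lilrb4a (above 0) and Sirpa (below 0) exclude 0 with the block alone, where Sirpa had FDR 0.0697.

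RefSeq promoter windows (GRCm38.p6, 250 bases before to 50 after the start) were at hand for 6 of the 10 genes, Pilra, Pirb, Siglece, Lilr4b, Cd300a and Cd300lf. They were searched on both strands for an interferon-response element core (ISRE, GAAANNGAAA), a STAT site core (GAS, TTCNNNGAA) and a core of the macrophage factor PU.1 (GAGGAA). Pilra was the only window of the 6 with an ISRE core (GAAATGGAAA at position -178 from the start), which 3.44% of all 32851 promoter windows hold. Lilr4b alone had a GAS core (TTCTCTGAA at -104), held by 8.3% of all windows. PU.1 cores, held by 28.3% of all windows, were found in 5 of the 6, with 3 each in Pirb and Siglece, 2 in Cd300lf and 1 each in Pilra and Cd300a. No match overlapped another, and these matches are descriptions of letters, not of binding. The windows of Pilra, Siglece, Cd300lf and Pirb, which rose and kept their call with each library left out, are printed in the gene's own direction, with the matches in capitals.
Pilra, chr5:137836229-137836528, minus strand: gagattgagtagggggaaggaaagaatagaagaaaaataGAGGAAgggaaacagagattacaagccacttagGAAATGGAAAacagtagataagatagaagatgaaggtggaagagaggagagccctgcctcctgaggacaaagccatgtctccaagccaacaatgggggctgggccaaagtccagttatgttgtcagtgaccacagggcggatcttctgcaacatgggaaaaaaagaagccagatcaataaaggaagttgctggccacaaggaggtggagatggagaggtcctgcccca
Siglece, chr7:43660112-43660411, minus strand: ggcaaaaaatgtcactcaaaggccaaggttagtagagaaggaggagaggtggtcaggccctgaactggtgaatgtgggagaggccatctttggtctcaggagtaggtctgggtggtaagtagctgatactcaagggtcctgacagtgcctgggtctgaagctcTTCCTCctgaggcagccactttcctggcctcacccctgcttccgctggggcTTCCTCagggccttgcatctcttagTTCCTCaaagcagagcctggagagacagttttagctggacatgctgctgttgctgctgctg
Cd300lf, chr11:115133943-115134242, minus strand: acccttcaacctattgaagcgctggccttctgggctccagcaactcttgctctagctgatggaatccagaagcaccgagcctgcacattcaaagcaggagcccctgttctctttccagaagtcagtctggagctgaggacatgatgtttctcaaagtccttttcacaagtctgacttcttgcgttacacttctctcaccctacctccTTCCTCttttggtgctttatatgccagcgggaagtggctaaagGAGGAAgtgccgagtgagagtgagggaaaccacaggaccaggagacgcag
Pirb, chr7:3720333-3720632, minus strand: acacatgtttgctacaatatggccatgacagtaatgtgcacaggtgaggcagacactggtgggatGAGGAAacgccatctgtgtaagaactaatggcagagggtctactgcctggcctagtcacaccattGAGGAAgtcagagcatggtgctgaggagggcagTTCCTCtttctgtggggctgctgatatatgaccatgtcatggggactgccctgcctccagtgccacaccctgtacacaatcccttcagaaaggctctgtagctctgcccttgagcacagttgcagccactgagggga

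The family partners are relatives of these receptors, many of them activating, of which some are encoded beside a receptor described here and others elsewhere. Of 35 listed family partners, 28 had a row and 22 passed the filter, of which 6 were higher (Pilrb1, Cd300e, Pilrb2, Siglech, Cd200r4 and Cd33), 1 was lower (Cd300lb) and 15 did not pass the test, and the median log2 fold change was 0.19. The share called, 31.8%, was below the 37.1% of all genes, so the count says nothing particular of the relatives as a group. With the replicate block 9 were higher and 1 lower, where 50.9% of all genes were called. Of the tested Siglecs in this list, Siglech and Cd33 were higher. Cd22 (log2 fold change 0.03, FDR 0.765), Siglecf (0.01, FDR 0.977) and Mag (0.34, FDR 0.0624) were not called. Mag passed the test with the replicate block (FDR 0.0413). Cd200r4, Cd33, Cd22, Siglecf, Mag and Pira2 were named after their values were seen. So were H2-D1, Cd52, Pianp, Dok1, Csk, Ptpn6, Fyb, Rasa1, Cmas, Nans, Gne, Slc35a1, St3gal4, St3gal5, St6galnac4 and St6galnac6 in the lists below.

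In the PILR cluster on chromosome 5 the 3 genes rose together. Pilrb1, an activating PILR that pairs with DAP12, had 108, 72 and 89 counts in KO and 61, 29 and 32 in WT, a log2 fold change of 1.35 (SE 0.232, FDR 0.00182). Pilrb2 had 149, 144 and 144 counts in KO and 81, 97 and 62 in WT, a log2 fold change of 1.08 (SE 0.181, FDR 0.00163). For both, every KO library was above every WT library. The ratio of Pilrb2 to Pilra, both in RPKM, was 1.83 ± 0.209 in KO and 1.82 ± 0.273 in WT (SD, n = 3), and these groups overlapped. Of the Pilra windows, 7.57% also occur in other genes, with the largest part in Pilrb1 (4.4%), so a part of the reads may not be separable. Sequence shared between Pilrb1 and Pilrb2 was not examined, so their rises may not be independent.

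The CD300 cluster on chromosome 11 was split. Cd300lb, an activating receptor that uses DAP12 among its adaptors, was at 80.1, 97.2 and 101 CPM in KO and 150, 168 and 186 CPM in WT and fell by 0.86 on the log2 scale (SE 0.106, FDR 0.000374). Cd300e, an activating receptor of monocytes, was at 4.08, 5.00 and 3.71 CPM in KO and 2.40, 1.93 and 1.38 CPM in WT, a log2 fold change of 1.15 (SE 0.202, FDR 0.00205). The genotypes of neither gene overlapped, and they moved in opposite directions. Cd300c2, the most abundant CD300 relative per length, had a log2 fold change of 0.06 (SE 0.0625, FDR 0.502), which turned to -0.01 under upper-quartile scaling. The ratio of Cd300lf to Cd300lb in RPKM was 1.28, 1.05 and 1.07 in KO and 0.457, 0.379 and 0.391 in WT. Thus Cd300lf was above the level of Cd300lb in all KO libraries and below it in all WT libraries. An exact two-sided permutation test of 3 against 3 cannot go below p = 0.1. The crossing depends on the exon lengths used for RPKM and describes this pair alone. By mean RPKM, Cd300a (68.4 in WT, 72.5 in KO) was above Cd300lb (57.6 and 31.8) in both genotypes. Cd300c2 (119 in WT, 124 in KO) was above Cd300lf (23.4 and 35.8) in both.

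At the CD200R locus on chromosome 16, Cd200r1 showed no call while Cd200r4, an activating relative that pairs with DAP12, was at 80.8, 80.0 and 77.6 CPM in KO and 61.8, 47.7 and 45.3 CPM in WT. Its log2 fold change was 0.62 (SE 0.107, FDR 0.00183). The ratio of Cd200r1 to Cd200r4 in RPKM was 0.406 ± 0.0234 in KO and 0.629 ± 0.0836 in WT, with every KO library below every WT library. In the PIR cluster, Pira2, an activating relative of Pirb, had a log2 fold change of 0.04 (SE 0.0657, FDR 0.660), and the ratio of Pirb to Pira2 in RPKM was 11.0 ± 1.02 in KO and 8.30 ± 0.218 in WT, without overlap. Pirb and Pira2 share sequence, so reads split or dropped in counting may affect this ratio. The other listed Pira genes had no row, so the ratio does not measure the activating PIR genes as a group. Siglech, a Siglec that pairs with DAP12 and is also in the dendritic cell marker list, where Clec9a was higher too, had 21, 20 and 29 counts in KO and 17, 12 and 12 in WT. Its log2 fold change was 0.97 (SE 0.270, FDR 0.0194), a call lost without KO replicate 2 (FDR 0.0562), KO replicate 3 (FDR 0.0694), WT replicate 2 (FDR 0.0717) or WT replicate 3 (FDR 0.0590).

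**Figure D3:**
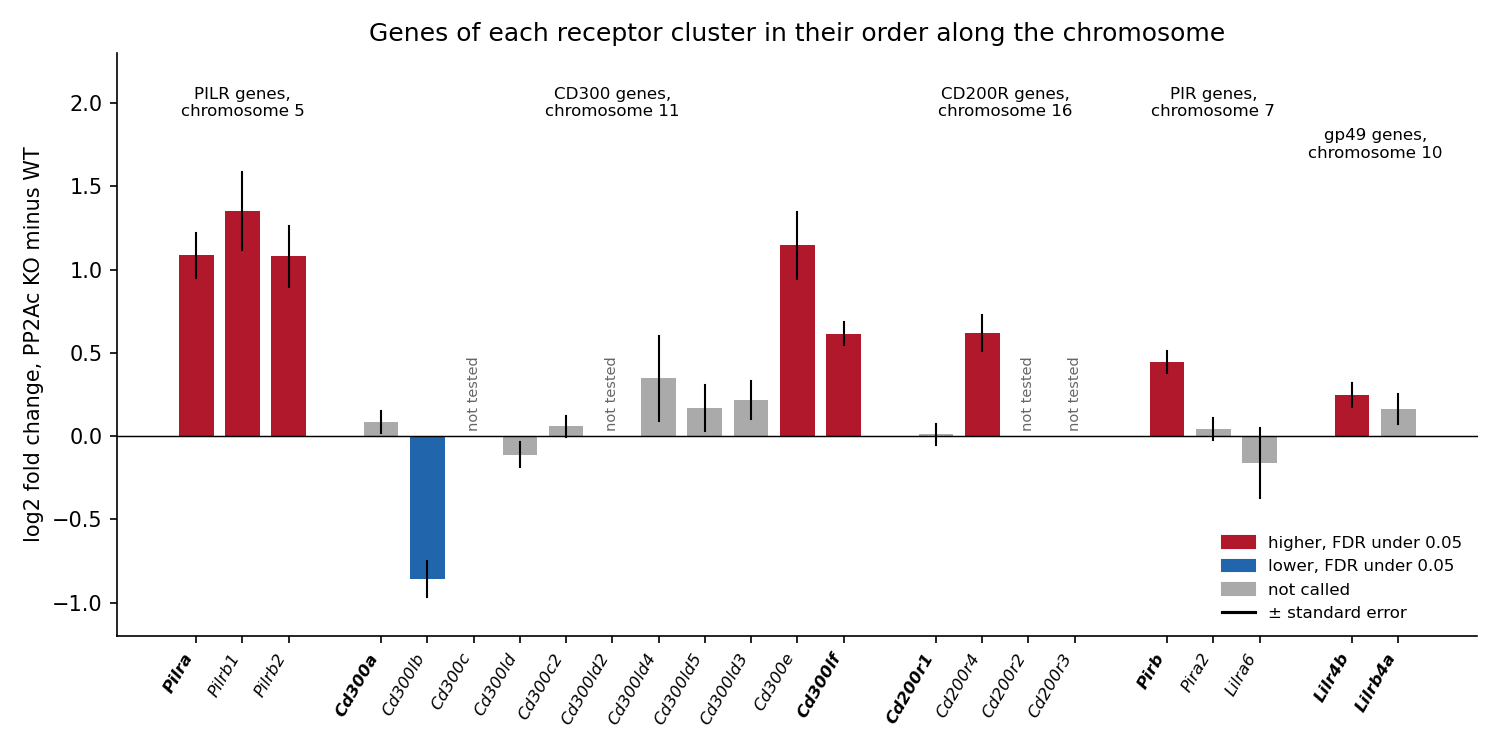
Log2 fold change, PP2Ac KO minus WT (y), of the genes of 5 receptor clusters, side by side in their order along each chromosome and not to genomic scale; bars are estimates, lines ± 1 standard error, red and blue mark higher and lower at FDR under 0.05, grey not called, and the receptors described here are in bold. The 3 PILR genes stand between 1.08 and 1.35, while the CD300 cluster runs from -0.86 (Cd300lb) to 1.15 (Cd300e).

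Among the ligands of these receptors, 9 of 10 listed genes had a row and passed the filter. Of them 5 were higher (H2-K1, B2m, Cd47, H2-D1 and Cd52), 2 were lower (Cd200 and Pianp) and 2 did not pass the test, and the log2 fold changes had a median of 0.48. Of all genes tested, 18.1% were higher and 19.0% lower. The count of lower ligands was 1 with RLE size factors, without the filter, with DESeq2 and without KO replicate 1, 2 or 3 or WT replicate 2 or 3. H2-K1, a classical MHC class I heavy chain and thus a PIR-B ligand, was at 2448, 2527 and 2156 CPM in KO and 1328, 1352 and 1043 CPM in WT, a log2 fold change of 0.94 (SE 0.112, FDR 0.000309). B2m, the light chain, rose by 0.74 (SE 0.111, FDR 0.000932) on the same scale, and both genes were higher in every KO library. Cd47, the SIRPα ligand, was at 1293, 1188 and 1120 CPM in KO and 979, 811 and 696 CPM in WT, a log2 fold change of 0.54 (SE 0.120, FDR 0.00696). The ratio of Cd47 to Sirpa in RPKM was 1.17 ± 0.165 in KO and 0.762 ± 0.188 in WT, with all KO libraries above all WT libraries.

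Cd200, the ligand of CD200R, was at 2.90, 2.54 and 3.07 CPM in KO and 3.99, 3.98 and 4.41 CPM in WT and fell by 0.53 on the log2 scale (SE 0.124, FDR 0.00851). All KO libraries were below all WT libraries. Apoe, described as a ligand of LILRB4 and the most abundant gene of the list, had a log2 fold change of 0.19 (SE 0.0830, FDR 0.103), which passed the test with the replicate block (FDR 0.00231). With that block 6 ligands were higher and 3 lower, against 24.4% and 26.4% of all genes.

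The signaling list held kinases, phosphatases and adaptors of inhibitory tails together with the adaptors of the activating relatives. Of its 17 genes 10 were called (58.8%, against 37.1% of all genes), 8 higher (among them Lyn, Src, Fcer1g, Csk, Ptpn6, Dok1 and Fyb) and 2 lower (Dok2 and Rasa1), with a median log2 fold change of 0.26. Lyn, the Src family kinase that phosphorylates many ITIMs in myeloid cells, was at 982, 926 and 859 CPM in KO and 545, 409 and 363 CPM in WT. The groups were widely separated, with a log2 fold change of 1.07 (SE 0.137, FDR 0.000436).

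Src rose by 0.60 on the log2 scale (SE 0.112, FDR 0.00294) and Ptpn6, which encodes SHP-1, by 0.35 (SE 0.0771, FDR 0.00652). Dok2, the adaptor downstream of CD200R, fell by 0.44 on the log2 scale (SE 0.108, FDR 0.0109), from 14.7, 17.8 and 19.3 CPM in WT to 11.8, 13.1 and 13.3 CPM in KO. Of the adaptors of the activating relatives, Fcer1g rose by 0.36 on that scale (SE 0.0661, FDR 0.00242), whereas Tyrobp had a log2 fold change of 0.15 (SE 0.0788, FDR 0.160). With the replicate block Tyrobp passed the test (FDR 0.00940), and 11 genes of the list were higher and 3 lower, against the same shares of all genes. Without KO replicate 2 or WT replicate 2, 1 gene of the list was lower in place of 2.

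Genes that make, attach or remove sialic acid, the ligand of the Siglecs and PILRs, went both ways. Of 27 listed, 21 passed the filter, 6 higher (St8sia1, St3gal6, Neu3, St3gal5, St6galnac4 and St3gal4) and 7 lower (St8sia4, Cmas, Nans, St6gal1, Gne, Slc35a1 and St6galnac6), with a median log2 fold change of -0.02, equal to that of all genes at this precision. The share called was 61.9%, against 37.1% of all genes. With the replicate block 6 were higher and 9 lower, where 50.9% of all genes were called. The lower genes include Gne, Nans and Cmas of the synthesis and activation of sialic acid and Slc35a1, which carries CMP-sialic acid into the Golgi. Cmas, which activates sialic acid for transfer, was at 65.6, 69.6 and 77.8 CPM in KO and 103, 105 and 104 CPM in WT and fell by 0.55 on the log2 scale (SE 0.0714, FDR 0.000453).

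Among the transferases, St8sia1, which builds disialylated gangliosides, had 121, 75 and 59 counts in KO and 39, 21 and 21 in WT, a log2 fold change of 1.86 (SE 0.306, FDR 0.00144). St3gal6, which adds sialic acid in α2,3 linkage to galactose, had 136, 89 and 96 counts in KO and 80, 47 and 27 in WT, a log2 fold change of 1.28 (SE 0.282, FDR 0.00656). Both were counted at low depth, and in both every KO count scaled for library size lay above every WT value. St8sia4, a polysialyltransferase, fell by 0.91 on the log2 scale (SE 0.0591, FDR 4.12e-05). St6gal1, which adds sialic acid in α2,6 linkage, fell by 0.31 on the same scale (SE 0.0834, FDR 0.0174), a call lost without KO replicate 1 (FDR 0.0520), KO replicate 3 (FDR 0.0584) or WT replicate 2 (FDR 0.0740).

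Neu3, the sialidase of the plasma membrane, rose by 0.63 on the log2 scale (SE 0.145, FDR 0.00801), while Neu1, the lysosomal sialidase, had a log2 fold change of -0.01 (SE 0.0705, FDR 0.898), which was 0.01 with RLE size factors. The number of sialic acid genes called lower was 4 without KO replicate 1 or KO replicate 2 and 3 without WT replicate 2.

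**Figure D4:**
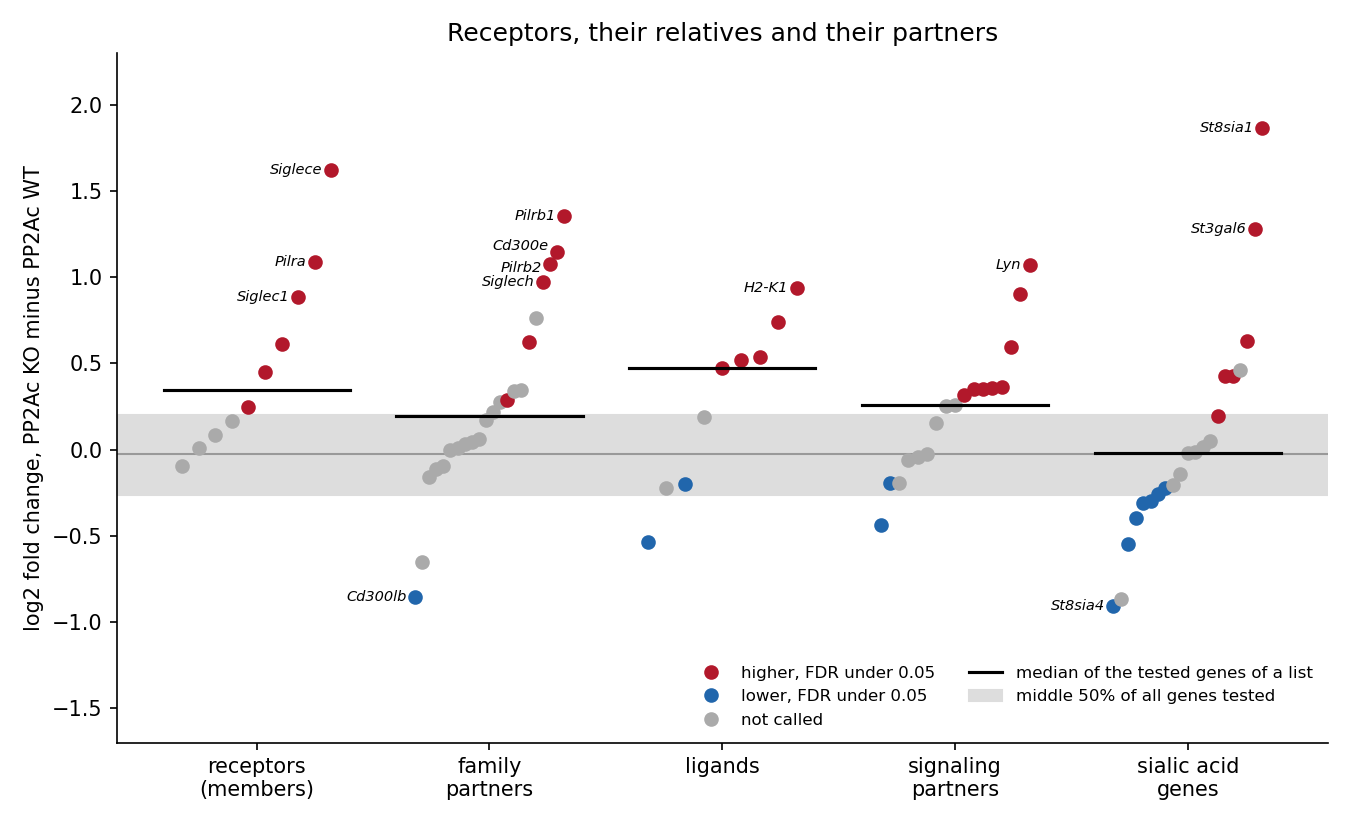
Log2 fold change, PP2Ac KO minus WT (y), of every tested gene of the receptors and of 4 lists (x), sorted within each list; red and blue mark higher and lower at FDR under 0.05, grey not called, black lines list medians and the grey band the middle 50% of all genes tested. The median is 0.35 for the receptors, 0.19 for the family partners, 0.48 for the ligands, 0.26 for the signaling partners and -0.02 for the sialic acid genes.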

How the data were processed

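The authors deposited 1 table of raw counts per gene symbol (55453 rows, 6 libraries, 30767 rows with no count). Per the labels, poly(A) RNA was made into libraries with a directional kit and sequenced as paired ends, and the submitters' processing notes name fastp 0.20.0, STAR 2.7.1a, HTSeq 0.11.2, kallisto 0.46.1, edgeR 3.34.0, limma 3.48.3 and the build mm10/GRCm38, without roles. The annotation release and the strand setting of the counting are not given in the sources used here, so reads of overlapping or antisense genes may not be separated.

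Genes were kept with filterByExpr (minimum count 10, total 15), scaled with TMM factors and fitted on genotype with the quasi-likelihood model of edgeR 4.0.16 in R 4.3.3 (3 against 3 libraries), with Benjamini-Hochberg adjustment (FDR) over 13680 genes. Standard errors were taken as the log2 fold change divided by the root of F. CPM and RPKM use TMM-scaled totals, RPKM also the union exon length in GENCODE M21. Library totals of 35257156 to 47390899 make 3 counts worth 0.0604 to 0.0909 CPM. Replicates of a genotype differed by more than sampling noise in all 6 within-group pairs, with chi-square per degree of freedom of 9.54 to 46.0.

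Same-numbered KO and WT libraries deviated together from their group means (correlation across genes 0.289, 0.148 and 0.337 for replicates 1, 2 and 3), so a model that also holds a replicate block is given where it changes a call. Under that block 24.4% of all genes were higher and 26.4% lower (50.9% called). The alternatives tried were upper-quartile scaling, RLE size factors, omission of the filter, at least 10 counts in every library, the block, each library left out, summed paralogs, DESeq2 1.42.0 and limma-voom (limma 3.58.1). The script was tested on simulated data.

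The receptors and the lists were chosen with earlier results of these data known. Named genes were all receptors, Ppp2ca and Ppp2cb, and from each list up to 4 called genes with the largest absolute log2 fold change and the 2 most abundant by RPKM, with further names marked as such in the text. Of the genes this rule names, 1 is not reported here.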

Additional observations from a re-analysis of the deposited data

How the results depend on the processing

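The count of receptors called higher was 6 under every scaling, filter and tool except upper-quartile scaling (5) and the replicate block (7), and ran from 5 to 7 with each library left out. The count called lower was 0 throughout, and the count past the study's thresholds was 2, or 3 without WT replicate 1. Over all single receptors and alternatives, 124 values kept direction and side of the threshold, 3 passed it newly, 5 lost it and 3 reversed; for the list genes the numbers were 284, 3, 7 and 5. The reversed values lay near 0: Cd200r1 under upper-quartile scaling (-0.052) and from -0.030 to 0.051 with a library left out, Cd300c2 under upper-quartile scaling (-0.0055), and Neu1 with RLE factors (0.0078), with DESeq2 (0.0077) and from -0.045 to 0.039 with a library left out. The cause was not tested. Ligands called lower numbered 1 with RLE factors, without the filter and with DESeq2, and 1 to 2 with a library left out, signaling partners called lower 1 to 2 and sialic acid genes called lower 3 to 9. Over all genes, 2470 were higher and 2604 lower, 2095 and 3356 with upper-quartile scaling, and 3343 and 3615 with the replicate block. The block called Lilrb4a (FDR 0.0298), Apoe (FDR 0.00231), Tyrobp (FDR 0.00940), Csf1r (FDR 0.00280), Zcwpw1 (FDR 0.0256), Lyz2 (FDR 0.0118) and Mag (FDR 0.0413) in addition. It changed no other call among the named genes. At 34 to 149 counts for Siglece and 61 to 140 for Pilra, counting error is a larger part of the spread than for the other receptors.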
